A study of Mus musculus with 4 samples.

Results

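Peaks assigned to chemosensory receptor genes were examined in the peak lists of a transketolase ChIP-seq experiment on mouse retina. A peak belonged to the set when the authors' annotation named an olfactory receptor (Olfr), a vomeronasal receptor of type 1 or type 2 (Vmn1r, Vmn2r) or a trace amine-associated receptor (Taar). The set held 742 of the 49058 listed peaks, 497 of 30791 in the induced list and 245 of 18267 in the noninduced list. Its members were found by gene symbol alone, without the use of tags or fold.

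The induced and the noninduced (control) retinas both came from Tet-opsin-VEGFA mice. As the name says, these carry a VEGFA transgene tied to a Tet system and to opsin, a protein of photoreceptors, and the retinas differed in whether the transgene was induced. The series text presents these VEGF-overexpressing mice as modelling AMD, a degeneration of the macula in ageing eyes. The sources used here do not state age, inducing agent or length of induction. Per the series text, 2 retinas were collected per condition, and each condition gave 1 ChIP library and 1 input library. The tissue was crosslinked with methanol and transketolase, which acts in the pentose phosphate pathway, was precipitated with an antibody. Each ChIP library was set against the input of its own condition. Without replicates, the spread between animals is unknown and the lists could be compared only as listed. Peak positions carry no expression, and the tissue label could not be checked against marker genes.

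Chemosensory receptors are G protein-coupled receptors of the nose. Olfactory receptors detect odours in the main olfactory epithelium, and most trace amine-associated receptors detect volatile amines there. The Vmn1r and Vmn2r families detect pheromones and related cues in the vomeronasal organ. The genes stand in large tandem clusters. An olfactory sensory neuron expresses a single olfactory receptor allele and packs the receptor genes it has not chosen in heterochromatin. The families are known for their role in the nose, and no role in the retina is assumed here.

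Few receptor start sites lay under a peak. Promoter windows from 250 bases before to 50 bases after the annotated start were taken from RefSeq (GRCm38.p6), where 1276 of the 1494 receptor genes matched by symbol. Of 1281 receptor windows, 6 (0.468%) overlapped an induced peak and 4 (0.312%) a noninduced peak, against 1.44% (induced) and 2.10% (noninduced) of all 32851 windows. Some peaks centred within 500 bp of the authors' start sites met none of these windows. Those at Olfr3, Olfr52, Olfr381 and Olfr1178 (induced) and at Olfr1387 (noninduced) were centred 269 to 452 bp downstream, past the end of a window. The others were at Olfr48, Olfr633 and Olfr1123 (induced) and at Olfr247, Olfr486 and Olfr735 (noninduced). The window counts leave the starts of these others out. The 5 windows printed here are those of Olfr259, Olfr906, Vmn1r124, Vmn1r177, which lay wholly inside a peak, and Vmn1r107, a close copy of Vmn1r124 that was touched by a peak of the other list. They are given 5′ to 3′ on the gene's strand, and the capitals mark the bases ATG where the annotated start site falls on a start codon.
Olfr259, chr2:87108336-87108635, minus strand: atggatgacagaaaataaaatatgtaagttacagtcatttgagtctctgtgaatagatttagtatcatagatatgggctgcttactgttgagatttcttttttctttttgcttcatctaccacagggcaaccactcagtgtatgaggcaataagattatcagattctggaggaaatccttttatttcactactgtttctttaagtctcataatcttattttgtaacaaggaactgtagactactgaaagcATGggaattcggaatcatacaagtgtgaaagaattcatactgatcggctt
Olfr906, chr9:38487781-38488080, plus strand: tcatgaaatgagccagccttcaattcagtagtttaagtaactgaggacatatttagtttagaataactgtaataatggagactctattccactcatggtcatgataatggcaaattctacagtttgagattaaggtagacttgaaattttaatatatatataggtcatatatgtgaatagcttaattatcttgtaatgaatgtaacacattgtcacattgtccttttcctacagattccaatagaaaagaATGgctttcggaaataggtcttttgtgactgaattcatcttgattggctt
Vmn1r124, chr7:21260568-21260867, minus strand: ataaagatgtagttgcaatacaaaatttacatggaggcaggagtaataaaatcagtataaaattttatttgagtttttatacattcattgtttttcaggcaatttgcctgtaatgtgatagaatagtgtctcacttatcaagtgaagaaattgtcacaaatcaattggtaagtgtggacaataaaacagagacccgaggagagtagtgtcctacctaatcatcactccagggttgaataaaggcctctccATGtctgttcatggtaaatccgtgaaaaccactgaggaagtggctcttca
Vmn1r107, chr7:20668668-20668967, plus strand: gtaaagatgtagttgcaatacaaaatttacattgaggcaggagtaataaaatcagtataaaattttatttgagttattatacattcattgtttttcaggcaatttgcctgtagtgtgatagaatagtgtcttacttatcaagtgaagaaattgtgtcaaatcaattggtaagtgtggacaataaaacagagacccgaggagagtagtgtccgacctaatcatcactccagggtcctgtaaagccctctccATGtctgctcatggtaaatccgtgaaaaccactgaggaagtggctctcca
Vmn1r177, chr7:23866400-23866699, minus strand: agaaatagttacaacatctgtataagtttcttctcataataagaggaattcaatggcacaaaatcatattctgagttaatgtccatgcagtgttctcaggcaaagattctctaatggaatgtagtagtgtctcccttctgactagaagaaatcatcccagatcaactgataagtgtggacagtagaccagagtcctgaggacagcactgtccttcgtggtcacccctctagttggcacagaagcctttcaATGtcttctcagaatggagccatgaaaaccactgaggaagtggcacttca

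These windows show how receptor genes are annotated. The annotated start fell on an ATG in 978 of 1281 receptor windows, or 76.3% (95% Wilson interval 73.9 to 78.6), against 2.97% (2.79 to 3.16) of 31570 windows of other genes. All 5 windows above are of this kind, in which the annotated model starts at the coding sequence. The receptor transcripts named in the peak lists were short, with a median span from start to end of 952 bp for Olfr, 925 bp for Vmn1r and 1042 bp for Taar transcripts, against 27620 bp for those of other genes. Vmn2r transcripts, whose receptors have a long extracellular domain encoded in several exons, had a median span of 23818 bp. Receptor windows were poor in G and C, with a median of 35.7% (quartiles 32.3 and 39.3) against 53.3% (46.7 and 62.0) in other windows, and held a median of 1 CpG against 8.

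Letter patterns of factors known to act at olfactory receptor promoters were searched on both strands. The homeodomain core TAATTA, of the kind bound by LHX2, was present in 16.5% (14.6 to 18.7) of receptor windows and 4.83% (4.60 to 5.08) of other windows. By family the share was 18.6% (16.2 to 21.2) for Olfr, 17.1% (11.3 to 24.9) for Vmn2r and 7.32% (4.48 to 11.7) for Vmn1r windows. The Vmn1r interval took in the share of other windows. TAATTA was in 1 of the 10 receptor windows under a peak, that of Olfr906. TATAAA, the core of a TATA box, was found in 39.7% of receptor windows and 12.6% of other windows. A TATAAA match can share end bases with a TAATTA match, and each was counted on its own. The palindrome bound by EBF factors was in 0.390% of receptor windows and 0.925% of other windows, and in none of the 10 under a peak. The A and T content of the windows differs as given above and its part in these shares was not tested. Most receptor windows, unlike those of other genes, were placed by a start codon, so they need not hold the promoter. The part of this placement in the shares was not tested either.

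Receptor genes had a promoter peak less often than other genes, by counts whose intervals did not overlap, in both lists. The 1494 receptor genes are those with a curated RefSeq transcript and include 17 that are classed as transcribed pseudogenes. The authors' promoter class covers peaks centred within 2 kb of a start site. In the induced list 55 of the 1494 receptor genes had such a peak, or 3.68% (2.84 to 4.76), against 7.18% of all 26219 genes. In the noninduced list 31 had one, or 2.07% (1.47 to 2.93), against 6.39% of all genes. The induced share was 3.73% for Olfr (42 of 1126), 4.78% for Vmn1r (11 of 230), 0.813% for Vmn2r (1 of 123) and 6.67% for Taar (1 of 15). The noninduced share was 2.22% for Olfr (25 genes) and 2.61% for Vmn1r (6 genes), and no Vmn2r gene had one, where a count of 0 in 123 allows up to 2.44%. No Taar gene had one either, which in 15 genes allows up to 20%. The intervals for all receptor genes lay below those for genes of no receptor family, which had 7.39% (7.07 to 7.72) in the induced and 6.65% (6.35 to 6.97) in the noninduced list. By family, the intervals of Vmn1r in the induced list (2.69 to 8.36) and of Taar in the induced (1.19 to 29.8) and noninduced (0 to 20.4) lists took in the value of other genes. Other clustered families varied. Zinc finger genes had 8.19% (5.89 to 11.3) induced and 8.93% (6.52 to 12.1) noninduced. Keratin and keratin-associated genes had 6.36% (3.12 to 12.6) and 0% (0 to 3.37), and cytochrome P450 genes 6.67% (3.27 to 13.1) and 0.952% (0.168 to 5.20). The keratin and cytochrome P450 intervals overlapped those of all receptor genes in both lists, and the zinc finger intervals in neither. With centres within 1 kb of a start, 27 receptor genes had an induced and 16 a noninduced peak. With equal numbers of top peaks from both lists, 30 receptor genes had an induced and 31 a noninduced promoter peak. Intervals cover counting error only, and peaks of 1 library are not replicates. No receptor gene had a promoter peak in both lists, where counts of 0 allow up to 5.45% of the 55 induced and 9.68% of the 31 noninduced genes. Among other genes 166 had one in both, or 8.96% of the induced and 9.96% of the noninduced ones. Whether receptor genes differ from other genes in this was not tested.

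**Figure D1:**
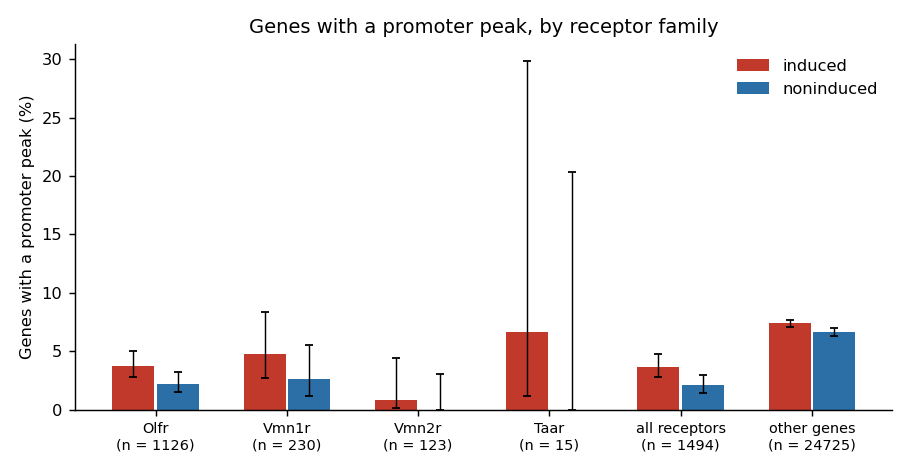
Percent of genes with a promoter peak (y axis) by receptor family, for all receptor genes and for other genes (x axis), in the induced list (left bars) and the noninduced list (right bars). Error bars are 95% Wilson intervals, and the bars for all receptors stand at 3.68% and 2.07% against 7.39% and 6.65% for other genes.

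Peaks were sparser at receptor start sites than at other start sites. Peak centres within 2 kb of 1274 autosomal receptor start sites numbered 43 in the induced list, or 8.46 per Mb (95% exact Poisson interval 6.12 to 11.4), against 16.8 per Mb (16.0 to 17.6) at 30091 other start sites. In the noninduced list they numbered 21, or 4.13 per Mb (2.56 to 6.31), against 14.3 per Mb (13.5 to 15.02). In 1 kb steps from 5 kb before to 5 kb after receptor start sites, the density stayed between 7.08 and 10.2 per Mb in the induced list and between 1.57 and 7.88 per Mb in the noninduced list. The intervals of neighbouring steps overlapped. In the kilobase just downstream of the start, other genes reached 20.1 per Mb (18.5 to 21.9) in the induced list, where receptors had 7.08 (3.24 to 13.4). For the noninduced peaks of that kilobase, other genes reached 18.7 per Mb (17.1 to 20.3) and receptors 3.93 (1.28 to 9.17). Since most receptor starts are annotated at the start codon, transcription starts further upstream are not marked in this count.

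**Figure D2:**
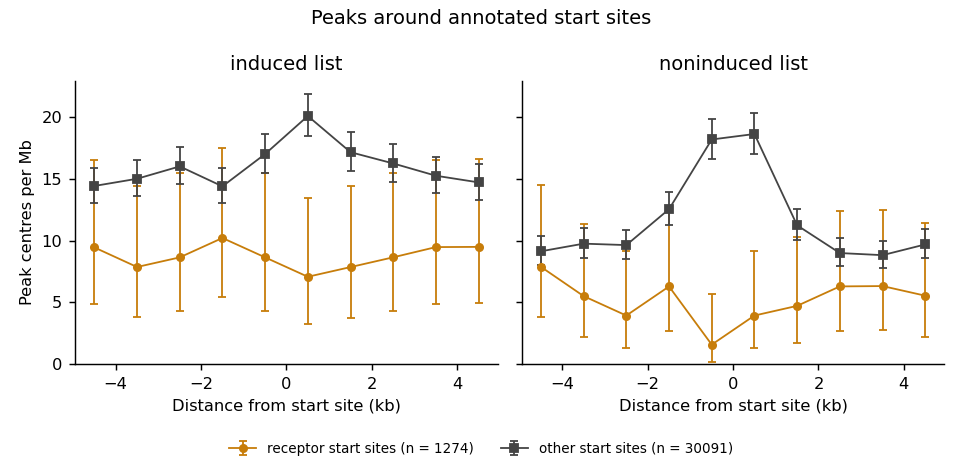
Peak centres per Mb (y axis) in 1 kb steps by distance from annotated start sites (x axis, kb, negative upstream), for 1274 receptor and 30091 other autosomal start sites, in the induced (left) and noninduced (right) list. Error bars are 95% exact Poisson intervals, and the receptor points lie between 7.08 and 10.2 per Mb (induced) and between 1.57 and 7.88 per Mb (noninduced), where other genes reach 20.1 and 18.7 per Mb.

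The peaks centred within 500 bp of a receptor start all lay at or below 10.74-fold. There were 13 in the induced list (2.62% of members, 1.53 to 4.42), against 1.62% (1.48 to 1.77) of other induced peaks. The noninduced list had 6 (2.45%, 1.13 to 5.24), against 2.95% (2.71 to 3.21) of other noninduced peaks. The induced ones were at Olfr3, Olfr32, Olfr48, Olfr52, Olfr243, Olfr259, Olfr381, Olfr633, Olfr906, Olfr1123, Olfr1168, Olfr1178 and Vmn1r124. Olfr259 led with 15 tags at 10.74-fold (chromosome 2, 87108233 to 87108850), centred 156 bp upstream of the start. Olfr3 stood at the same fold with 10 tags, Olfr906 had 11 tags at 9.66-fold, and Olfr1168 was lowest with 10 tags at 5.85-fold. The noninduced ones were at Olfr247, Olfr486, Olfr735, Olfr963, Olfr1387 and Vmn1r177. Olfr963 led with 25 tags at 7.33-fold (chromosome 9, 39668839 to 39669931), and Olfr1387 was lowest with 16 tags at 4.89-fold. The lowest tag count of any receptor peak was 10 in the induced and 14 in the noninduced list, and 5 of the 13 induced ones had that count. Tags are the reads counted inside a peak. Tags and folds here are the authors' own values, and the background of the fold is not stated, so folds are ranked only within a list.

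The Vmn1r windows above have near-identical copies elsewhere. The windows of Vmn1r124, under an induced peak, and Vmn1r107, touched by a noninduced peak, differed at 15 of 300 bases, an identity of 95%. The Vmn1r107 window was identical (100%) to that of Vmn1r155, and Vmn1r177 shared 98% of its bases with Vmn1r168. By family, 77 of 205 Vmn1r windows (37.6%) and 43 of 117 Vmn2r windows (36.8%) had a copy of at least 90% identity at another receptor gene, compared without gaps, against 20 of 948 Olfr windows (2.11%). Olfr259 and Olfr906 had no such copy, with best matches of 55.7% and 42%. The sources do not state how reads matching several copies were placed, so which copy a Vmn1r or Vmn2r peak belongs to is uncertain.

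Most members lay between receptor genes and not over them. In the induced list 64 of 497 members (12.9%, 10.2 to 16.1) overlapped a receptor gene body and in the noninduced list 37 of 245 (15.1%, 11.2 to 20.1). Autosomal receptor gene bodies spanned 5.71 Mb, and the autosomal receptor clusters described below 61.5 Mb. Counting all peaks, bodies held 10.2 induced centres per Mb (7.71 to 13.1) and clusters 10.7 (9.86 to 11.5). The noninduced values were 6.30 (4.41 to 8.73) for bodies and 5.03 (4.48 to 5.62) for clusters. Per Mb, the intervals of bodies and clusters overlapped in both lists. Over any annotated gene lay 27.6% of the induced members, against 57.3% of the other induced peaks. The noninduced shares were 22.4% of members and 60.4% of other peaks. The authors' classes placed 35.8% (31.7 to 40.1) of induced members upstream, which means from 2 to 20 kb before a start site, against 14.1% (13.7 to 14.5) of other induced peaks. Introns held 6.64% of induced members and 31.2% of other induced peaks. The noninduced list showed the same order, with 35.5% (29.8 to 41.7) of members and 13.4% (12.9 to 13.9) of other peaks upstream, and 8.98% of members and 34.6% of other peaks in introns. Promoters held 10.7% (8.25 to 13.7) of induced members against 5.69% of other peaks, and 11.0% (7.69 to 15.6) of noninduced members against 8.43%. The median distance to the assigned start was 10347 bp for induced members and 49577 bp for other induced peaks, and 9237 bp against 40381.5 bp in the noninduced list. Receptor genes are closely spaced, and the part of that spacing in these shares was not tested. A single exon peak was listed in each condition, at Olfr1157 (11 tags, 9.66-fold) in the induced and at Olfr67 (21 tags, 6.84-fold) in the noninduced list.

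Receptor genes at most 1 Mb apart were joined into 72 clusters spanning 62.2 Mb, a count that includes 19 genes standing alone. The 72 clusters held 445 of the 497 induced members (89.5%) and 227 of the 245 noninduced members (92.7%). Counting all peaks by position, whatever gene they were assigned to, autosomal clusters held 655 induced peaks or 10.7 per Mb (9.86 to 11.5), against 12.6 per Mb (12.4 to 12.7) outside them. The ratio was 0.847 (95% exact interval 0.783 to 0.916). In the noninduced list clusters held 309 peaks or 5.03 per Mb (4.48 to 5.62), against 7.56 per Mb (7.45 to 7.68) outside, a ratio of 0.665 (0.592 to 0.744). Outside protein-coding gene bodies the ratios were 0.855 (0.780 to 0.936) in the induced and 0.746 (0.653 to 0.850) in the noninduced list. Over short genes the ratio was lower still in the induced list, while in the noninduced list its interval overlapped that of whole clusters. Bodies of receptor genes under 10 kb held 9.55 induced peak centres per Mb against 26.9 in other protein-coding genes under 10 kb, a ratio of 0.355 (0.212 to 0.558), and 6.03 noninduced centres per Mb against 13.4, a ratio of 0.451 (0.231 to 0.798). Whether reads could be placed as well in the clusters as elsewhere was not tested.

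Among other tandem families, clusters of zinc finger genes, which encode DNA-binding repressors and other factors, held 13.5 (12.0 to 15.2) induced and 7.36 (6.24 to 8.62) noninduced peaks per Mb. Keratin clusters held 13.9 (9.86 to 19.0) induced and 2.85 (1.23 to 5.61) noninduced peaks per Mb. Clusters of cytochrome P450 genes, which encode oxidising enzymes, held 11.1 (8.47 to 14.3) induced and 4.62 (2.99 to 6.83) noninduced peaks per Mb. The intervals of the keratin and cytochrome P450 clusters overlapped those of the receptor clusters in both lists, and those of the zinc finger clusters did in neither.

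**Figure D3:**
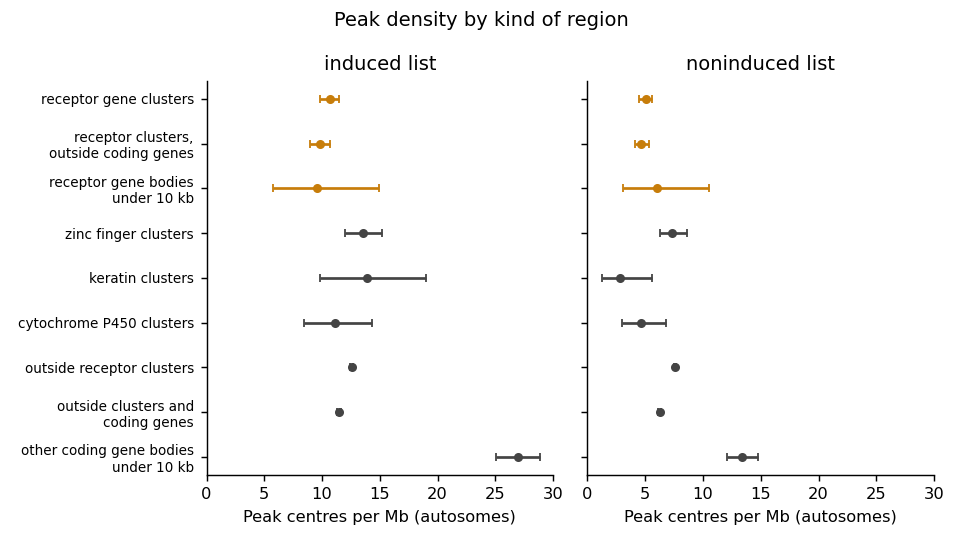
Peak centres per Mb of autosome (x axis) in receptor gene clusters and bodies (orange, upper 3 rows) and in other kinds of region (grey), in the induced (left) and noninduced (right) list. Bars are 95% exact Poisson intervals, and the widest gap is between receptor gene bodies under 10 kb (9.55 and 6.03 per Mb) and other coding gene bodies under 10 kb (26.9 and 13.4 per Mb).

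The cluster with the most members was the Olfr cluster of chromosome 2 (85330967 to 90401674), with 226 genes, 56 induced and 21 noninduced members. It was followed by a mixed cluster on chromosome 7 (5146490 to 13220289) of 35 Vmn1r, 29 Vmn2r and 8 Olfr genes, with 53 induced and 19 noninduced members. A Vmn2r and Vmn1r cluster on chromosome 17 (17703941 to 21314886) had 26 induced and 13 noninduced members. The cluster of 125 Olfr genes on chromosome 7 (102476773 to 105369317), which holds the class I receptors and surrounds the beta-globin locus, had 24 induced and 12 noninduced members. An Olfr cluster of 99 genes on chromosome 9 (37711348 to 40188094) had 20 induced and 15 noninduced members. Induced peak density in these 5 clusters, over all peaks, ran from 8.48 to 13.1 per Mb with overlapping intervals. Noninduced density ran from 4.14 to 6.06 per Mb, also with overlapping intervals.

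Most receptor genes had no assigned peak. Any assigned peak was found for 381 of 1494 receptor genes (25.5%, 23.4 to 27.8) in the induced list, against 45.0% of all genes. The noninduced list named 224 of the 1494 (14.99%, 13.3 to 16.9), against 34.4% of all genes. Such a peak was found for 24.5% (induced) and 4.55% (noninduced) of keratin and keratin-associated genes. The values were 45.7% and 29.5% for cytochrome P450 genes, and 49.1% and 34.5% for zinc finger genes. The induced share was 20.4% for Olfr, 36.1% for Vmn1r and 52.0% for Vmn2r genes, and the noninduced share was 11.6%, 20.9% and 34.1% in the same order of families. The Vmn2r intervals (43.3 to 60.7 induced and 26.4 to 42.9 noninduced) took in the share of all genes. So did those of Taar (10.9 to 52.0 and 7.05 to 45.2). The part of gene length and spacing in these shares was not tested. By symbol, 80 receptor genes had a peak in both lists, which was 20.9% of the 383 named in the induced and 35.4% of the 226 named in the noninduced list. Among other genes 51.8% of those named in the induced and 67.3% of those named in the noninduced list were in both, and the part of gene length and of peaks per gene in this was not tested. Most named genes had a single peak, 284 of 383 in the induced and 199 of 226 in the noninduced list. The most was 7 induced peaks at Vmn2r99, a pheromone receptor gene of the chromosome 17 cluster, at 5.85-fold to 11.81-fold with 10 to 15 tags, beside 1 noninduced peak of 17 tags at 4.89-fold. Olfr161 had 5 induced peaks, from 42980 to 433096 bp before its start, and no noninduced peak. Vmn1r66, Vmn1r238 and Vmn2r60 had 4 induced peaks each, and 4 further induced peaks carried the names of both Olfr257 and Olfr285. In all, 18 induced and 6 noninduced members named more than 1 receptor gene and count for each in these counts per gene. In the noninduced list the most was 3, at Vmn1r3 and Vmn2r104, and 25 genes had 2.

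Receptor peaks had median values close to those of other peaks. The median induced member had 11 tags at 8.59-fold, and the median of other induced peaks was also 11 tags at 8.59-fold. The median noninduced member had 17 tags at 6.05-fold, beside 18 tags at 5.86-fold for other noninduced peaks. Induced medians were 8.59-fold for Olfr, Vmn1r and Vmn2r alike, and noninduced medians were 6.31-fold for Olfr, 5.86-fold for Vmn1r and 6.35-fold for Vmn2r. The lowest tag count of the list was shared by 152 induced members (30.6%) and 35.6% of other induced peaks. The Taar family, with 15 genes, had 4 induced members, of which Taar3 held the 1 promoter peak (14 tags, 10.74-fold, 531 bp upstream of the start). Taar6 stood at 11.81-fold with 11 tags, Taar4 at 9.66-fold with 12 and Taar7d at 7.18-fold with 15. The noninduced Taar peaks were upstream of Taar8a (22 tags, 10.26-fold, the highest fold of any noninduced member), Taar9 (18 tags, 5.38-fold) and Taar4 (15 tags, 5.38-fold). The Taar4 peaks of the 2 lists did not overlap.

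**Figure D4:**
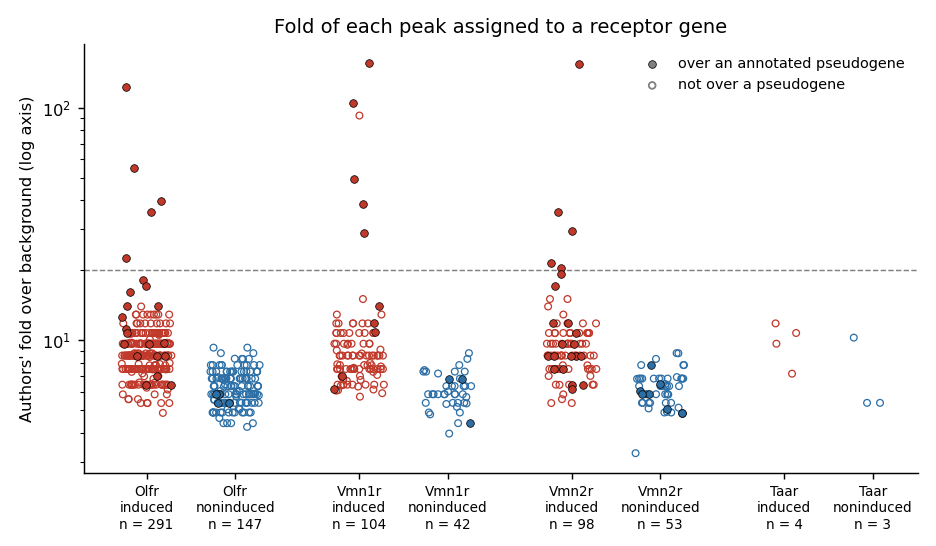
The authors' fold over background (y axis, log scale) of each of the 742 members by receptor family, with the induced list left of the noninduced list in each pair (x axis). Filled points lie over an annotated pseudogene and the dashed line marks 20-fold. Above the line 15 of 16 points are filled, and all 16 are induced.

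Nearly all strong members of the induced list lay over an annotated pseudogene. Of 497 induced members, 16 reached 20-fold (3.22%, 1.99 to 5.17), near the 3.48% of all induced peaks. They comprised 6 Vmn1r, 5 Vmn2r and 5 Olfr assignments. An annotated pseudogene lay under 15 of the 16 (93.8%, 71.7 to 98.9), against 8.11% (5.99 to 10.9) of induced members under 20-fold and 62.5% (59.6 to 65.4) of other induced peaks of at least 20-fold. No noninduced member reached 20-fold, which in 245 allows up to 1.22%, in a list where 0.00547% of peaks did. Of the noninduced members 15 (6.12%, 3.75 to 9.85) overlapped a pseudogene, against 1.56% (1.39 to 1.75) of other noninduced peaks. Of these members 7 lay over a pseudogene with a receptor family symbol. For pseudogenes of other families the shares were 3.27% (1.66 to 6.31) and 1.53% (1.36 to 1.72), with overlapping intervals. How densely pseudogenes stand near receptor genes was not compared. The 20-fold threshold and the pseudogene comparison were chosen with these folds known.

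The strongest was assigned to Vmn1r70 (chromosome 7, 10656468 to 10656983), with 158 tags at 154.62-fold, and 98.3% of its length lay over the pseudogene Gm6900. The peak assigned to Vmn2r63 (chromosome 7, 42953264 to 42954117) had 166 tags at 153.55-fold and lay over Gm9294. That assigned to Olfr331 (chromosome 11, 58508791 to 58509479) had 120 tags at 122.41-fold and lay within Gm21927, a pseudogene annotated over 25638 bp. The assigned start sites of these 3 peaks were 23139, 19901 and 6562 bp away.

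Counting a single pseudogene for each of the 15 peaks, 5 carry the symbol of a parent gene and 10 a Gm symbol. The Vmn1r226 peak overlapped both Gm5492 and Gm52311. A peak 8575 bp upstream of Vmn1r26 (97 tags, 104.16-fold) overlapped Rps15-ps2, named after a ribosomal protein gene, and one near Olfr272 (54 tags, 54.76-fold) lay within Cct3-ps1, named after a subunit of the cytosolic chaperonin. A peak upstream of Vmn2r60 (45 tags, 35.43-fold) lay within Ccnb1-ps, named after cyclin B1, and one near Vmn2r85 (25 tags, 21.48-fold) lay within Ctdsp2-ps. The promoter peak of Olfr66 (37 tags, 35.43-fold) started at 103882572 on chromosome 7, and Dnajc19-ps, named after a mitochondrial import protein gene, runs from 103882573 to 103883104. The strong peak assigned to Olfr3 (35 tags, 22.55-fold) ran from 36807801 to 36808470 on chromosome 2, and the pseudogene Gm13436, whose synonym is Rpl18p, runs from 36807789 to 36808427. The other strong members over pseudogenes were assigned to Vmn1r226 (49.39-fold), Olfr1434 (39.73-fold), Vmn1r180 (38.66-fold), Vmn2r60 (a second peak, 29.52-fold), Vmn1r88 (28.99-fold) and Vmn2r53 (20.4-fold). Those at Vmn2r60 (29.52-fold) and Vmn2r53 were in introns, over the pseudogenes Gm2308 and Gm15773. The one strong member without an annotated pseudogene lay 2242 bp upstream of Vmn1r236 (chromosome 17, 21284027 to 21284554), with 87 tags at 92.35-fold.

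**Figure D5:**
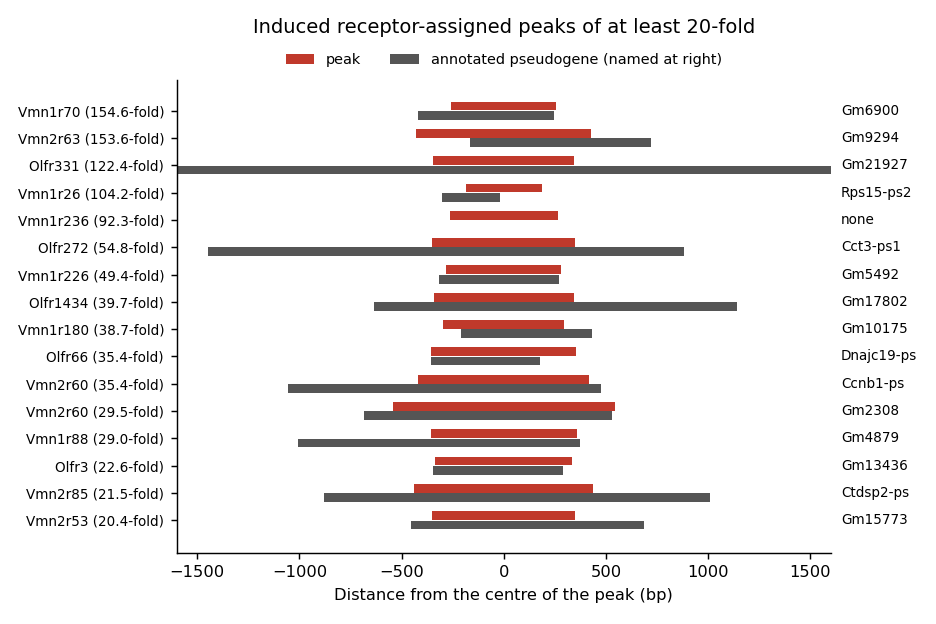
The 16 induced members of at least 20-fold (red bars) by distance in bp from the centre of the peak (x axis), in order of fold. Grey bars, named at right, show a single pseudogene for each of the 15 that had any. For 14 of the 15 with a pseudogene, more than 50% of the peak is covered by it, and the bar of Gm21927 runs past the right and left edges of the plot.

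Pseudogenes named for the receptor families were not among those under strong peaks. Of 608 pseudogenes with a receptor family symbol, none was touched by an induced peak of at least 20-fold, which allows up to 0.493%. Of 476 other pseudogenes inside receptor clusters 19 were touched (3.99%, 2.57 to 6.15), and of 9525 other pseudogenes elsewhere 642 were (6.74%, 6.25 to 7.26). The 3 groups were of like size, with median lengths of 906.5, 968 and 923 bp. At any fold, induced peaks touched 21 of the 608 (3.45%, 2.27 to 5.22), 48 of the 476 (10.1%, 7.69 to 13.1) and 1307 of the 9525 (13.7%, 13.0 to 14.4). Noninduced peaks touched, in the same order, 2.14% (1.25 to 3.62), 2.10% (1.15 to 3.82) and 2.61% (2.31 to 2.95), and their intervals overlapped. Some pseudogenes with Gm symbols may descend from receptor genes, which the gene table does not tell. Receptor genes not classed as pseudogenes numbered 1479, of which 1477 are among the 1494 above and 2 have no curated transcript. An induced peak of at least 20-fold touched 2 of them (0.135%, 0.0371 to 0.492), Vmn2r60 and Vmn2r53, in both cases at the intronic pseudogenes named above. Of 20409 other protein-coding genes 2.56% (2.35 to 2.78) were touched, at a median length of 19080 bp against 951 bp for the receptor genes.

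Away from pseudogenes 1 of 443 induced members reached 20-fold (0.226%, 0.0399 to 1.27), against 1.37% (1.24 to 1.51) of other induced peaks off pseudogenes. The intervals overlapped. The median of the 443 was 8.59-fold and the highest was the Vmn1r236 peak. The next fold, 15.03, was shared by peaks near Vmn1r72, Vmn2r26 and Vmn2r98 with 14 to 16 tags. Among the 230 such noninduced members the highest was 10.26-fold near Taar8a, followed by 9.29-fold near Olfr146 (22 tags) and Olfr891 (23 tags). The other noninduced members of the 10 highest folds, assigned to Vmn1r206, Olfr1231, Vmn2r62, Olfr371, Vmn2r117, Olfr225 and Olfr114, lay between 8.31-fold and 8.8-fold with 18 to 25 tags. At 8.31-fold Olfr114 was tied with Olfr514, Olfr1406, Vmn1r183 and Vmn2r50, and the 5 tied peaks had 20 to 27 tags.

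Few peaks were listed in both conditions, among receptor members and other peaks alike. Of the induced members 6 (1.21%, 0.554 to 2.61) overlapped a noninduced peak, against 1.64% (1.504 to 1.79) of other induced peaks. Of the noninduced members 6 (2.45%, 1.13 to 5.24) overlapped an induced peak, against 2.73% (2.50 to 2.98) of other noninduced peaks. All 6 pairs were members in both lists. The pair near Olfr3, over Gm13436, had 35 tags at 22.55-fold in the induced and 16 tags at 5.38-fold in the noninduced list. A pair in an intron of Vmn2r59, over the pseudogene Hmgb1-ps7, had 24 tags at 19.33-fold in the induced and 17 tags at 7.82-fold in the noninduced list. The pair upstream of Olfr972 had 11 tags at 11.81-fold in the induced and 18 tags at 7.33-fold in the noninduced list. The remaining pairs lay near Vmn1r238, Vmn1r84 and Vmn1r3, at 6.1-fold to 7.71-fold in the induced and 5.35-fold to 7.44-fold in the noninduced list. The 2 pairs of highest induced fold were the 2 over pseudogenes. When an overlap of 50% of both peaks was required, the shared share was 0.402% of induced and 0.816% of noninduced members. Each list was called on its own at unknown depth, so absence from a list does not show absence of binding.

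Genes that carry the odour and pheromone signal or choose the receptor had promoter peaks at or below 12.89-fold. Across all genes, as given above, 7.18% had an induced and 6.39% a noninduced promoter peak, while 45.0% had any induced and 34.4% any noninduced peak. The lists that follow are short, and whether they differ from these shares was not tested. Of 21 signalling genes, 2 had a promoter peak in the induced list, namely Cngb1, a cyclic nucleotide-gated channel subunit also used by rods (13 tags, 12.89-fold), and the phosphodiesterase gene Pde4a (10 tags, 9.75-fold). Noninduced promoter peaks were found at 4, namely Pde1c (6.84-fold), Slc24a4 (6.35-fold), Pde4a (5.38-fold) and Rtp2 (5.09-fold), a chaperone of olfactory receptors. Gnal and Adcy3, the G protein and cyclase of the odour cascade, had no induced peak and 1 noninduced peak each outside the promoter, and Omp, Cnga2, Cnga4, Trpc2, Rtp1, B2m and Stoml3 had none in either list. Any assigned peak was found for 10 of the 21 in the induced and 11 in the noninduced list. Of 13 genes tied to receptor choice, 3 had a promoter peak in the induced list, Atf5 (10.74-fold), Ldb1 and Ebf2 (8.59-fold each), and 1 in the noninduced list, the histone demethylase gene Kdm1a (7.82-fold). Any assigned peak was found for 9 of the 13 in each list. Among other chemosensory genes, 3 of 35 type 2 taste receptors, 1 of 3 type 1 taste receptors, 1 of 6 formyl peptide receptors and 2 of 21 Ms4a genes had an induced promoter peak. Among noninduced peaks 1 type 2 taste receptor had one, and no gene of the other 3 groups did.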

How the data were processed

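Per the submitters' processing notes, the authors used FastQC and Bowtie2 2.2.7, and the build was mm10 (GRCm38). For the peak caller, its version and its settings: not given in the sources used here. Per the file headers, the authors deposited for each peak a count of tags, a ratio given as fold enrichment, a score of 10 times the −log10 p-value, a false discovery rate in percent, and a class and distance for each RefSeq transcript. Total depth was unknown. A further 3 sheets held no values.

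Peaks were counted once per position and list. Gene spans came from a RefSeq table of GRCm38.p6, in which 526 of 529 assigned receptor symbols were found. Overlap needed 1 bp. Densities used peak centres on the autosomes between the first and last gene. Start sites of all genes came from the RefSeq promoter table. Listed receptor start sites whose gene symbol it holds numbered 462, and 439 of them lay within 10 bp of a start given there for that gene. Those of other symbols were not compared. The conditions, with a single ChIP library each, were not tested against each other. Shares carry 95% Wilson intervals and densities exact Poisson intervals, for counting error only.

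Members and lists were chosen with earlier results of these data known. Named were the 10 members of highest fold per list, those within 500 bp of a start, shared members, Taar members, the 5 genes and 5 clusters with most members (genes tied at 4 induced peaks are all named), and 2 fixed gene lists. The strong members were named in addition, after their values were seen. Alternatives covered thresholds, window, overlap, family and pseudogenes. The overlap, cluster and interval routines were tested on simulated data. Scripts ran in Python 3.11.15 with scipy 1.17.1, numpy 2.4.6, pandas 2.3.3 and, for figures, matplotlib 3.10.9.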

Additional observations from a re-analysis of the deposited data

How the results depend on the processing

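No paired analysis was possible because neither condition had a second ChIP library, which also meant that none could be left out. At a −log10 p of at least 10, 25 induced and 1 noninduced receptor peaks were left. The assigned share was then 1.34% of induced and 0.654% of noninduced peaks, and the promoter share 8% of induced and 0% of noninduced members. Receptor genes with a promoter peak numbered 2 induced and 0 noninduced, overlap with the other list was 0% in both, and the induced pseudogene share was 84%. The single noninduced peak, upstream of Olfr974, gave 0% over receptor genes and 0% over pseudogenes, and the noninduced density ratio was 0.522 (0.0627 to 1.92). The construction leaves fewer peaks. With equal numbers of top peaks, induced genes with a promoter peak numbered 30, beside 31 noninduced, and the induced pseudogene share was 14.8%. With centres within 1 kb of a start, promoter shares were 5.43% (induced) and 4.90% (noninduced), with 27 induced and 16 noninduced genes. Overlap of 50% of both peaks, and summits within 200 bp, each gave 0.402% of induced and 0.816% of noninduced members. With olfactory receptors alone, the induced assigned share was 0.945%, the promoter share 14.4% and the pseudogene share 7.56%. The noninduced assigned share was 0.805%, the promoter share 17.01%, the pseudogene share 2.72% and the noninduced share over receptor genes 8.84%. The cause of these shifts was not tested. Of 74 values under alternatives, 29 moved past their counting interval or 1.5 times their count and 45 did not. The settings for cluster gap (0.5 Mb), fold threshold (15 and 30) and density were chosen after seeing the data. At 15-fold and 30-fold the pseudogene share of strong induced members was 83.3% and 90.9%. Of the members, 30.6% in the induced and 9.39% in the noninduced list stood at the lowest tag count of their list, and the part of depth was not tested.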
